A study of Caenorhabditis elegans with 6 samples.

Results

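The hedgehog-related and patched-related genes of *C. elegans* were followed in RNA of neural cells from first-stage (L1) larvae. They were taken by name, as every gene of the *wrt*, *grd*, *grl*, *hog*, *qua*, *ptr* and *ptc* families in the deposited table apart from *ptr-10*, which left 77 of the 19793 genes listed. Of these, 53 are hedgehog-related (10 *wrt*, 17 *grd*, 24 *grl*, *hog-1* and *qua-1*) and 24 are patched-related (22 *ptr*, *ptc-1* and *ptc-3*). No measured value entered this rule, though earlier results of these data were known when the genes were chosen.

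The study compared neural cells that lack ADR-2, with and without RNA binding by ADR-1, its editing-deficient relative. ADR-2 is the only enzyme for adenosine-to-inosine RNA editing in the worm. Each genotype had 3 libraries, described as independent biological replicates. The *adr-2 (-)* cells came from strain BB78, and the *adr-2 (-)*;ADR-1 dsRBD1 cells (dsRBD1 mutant below) came from strain HAH57. Both strains carry the *adr-2* (*ok735*) deletion, RFP and GFP reporters driven by the neural *rab-3* promoter, one with the *C35E7.6* and one with the *unc-54* 3′ UTR, and an *unc-119* genomic rescue. HAH57 further carries lysine substitutions in the first double-stranded RNA-binding domain of a 3X FLAG ADR-1, a tag that is not listed for BB78. All L1 animals were obtained by bleaching, and the paper states that its larvae hatched without food, overnight in M9 buffer. Every sample compared here lacked ADR-2.

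The worm has no true Hedgehog ligand and no Smoothened, but it has an expanded set of secreted hedgehog-related proteins. Some of the warthog (*wrt*), groundhog (*grd*), hog and quahog (*qua*) proteins carry the Hedgehog autoprocessing domain. The groundhog and ground-like (*grl*) proteins share related cysteine-rich domains. Patched (*ptc*) and patched-related (*ptr*) proteins are membrane proteins with a sterol-sensing domain. In worms these genes are best known from the epidermis and other cells that make cuticle, where many of them act in growth, molting and the extracellular matrix.

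Values below are normalized read counts, which are read counts divided by the size factor of the library, and they are not corrected for gene length unless stated. The libraries held 5686686 to 18382009 reads on genes. Genes with reads numbered 10532 in the third *adr-2 (-)* library, 11971 in the first dsRBD1 mutant library and 14778 to 15887 in the others. The third *adr-2 (-)* library was the smallest and stood apart, with 55.4% of its reads on ribosomal RNA genes against 13.5 to 22.3% elsewhere, 1 read worth 3.25 normalized counts against at most 0.930, and a mean correlation with the other libraries of 0.602 against 0.739 to 0.803. All 13 neuron markers on the list had reads in all 6 libraries, with summed values of 29383 to 36237, while 8 muscle markers summed to 203965 to 332614 and 7 intestine markers to 52433 to 82058. The largest muscle marker, *unc-54*, read 65079 to 143716, and reads of the neural reporter with its 3′ UTR may count towards it. The other muscle markers and the intestine markers do not share that limit. The libraries therefore held RNA of other tissues beside neurons. In such RNA, fewer cells of a type and less RNA per cell cannot be told apart.

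No hedgehog-related or patched-related gene passed the test between genotypes. Of the 57 members with a mean of at least 10 normalized counts, 0 had an adjusted p under 0.05 with an absolute log2 fold change above 0.5 in limma, where 0 of 13705 genes (0%) did. With an unadjusted p under 0.05, 4 members were higher in the dsRBD1 mutant (7.02%, against 3.46% of all genes tested) and 0 were lower (2.9% of all), while 6.36% of all genes met this in either direction. These 4 were *ptc-1*, *ptr-8*, *ptr-11* and *grd-13*. The members were uneven among libraries, and 26 of the 57 had more than 50% of their summed value in a single library (45.6%, against 16.3% of all genes tested).

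**Figure D1:**
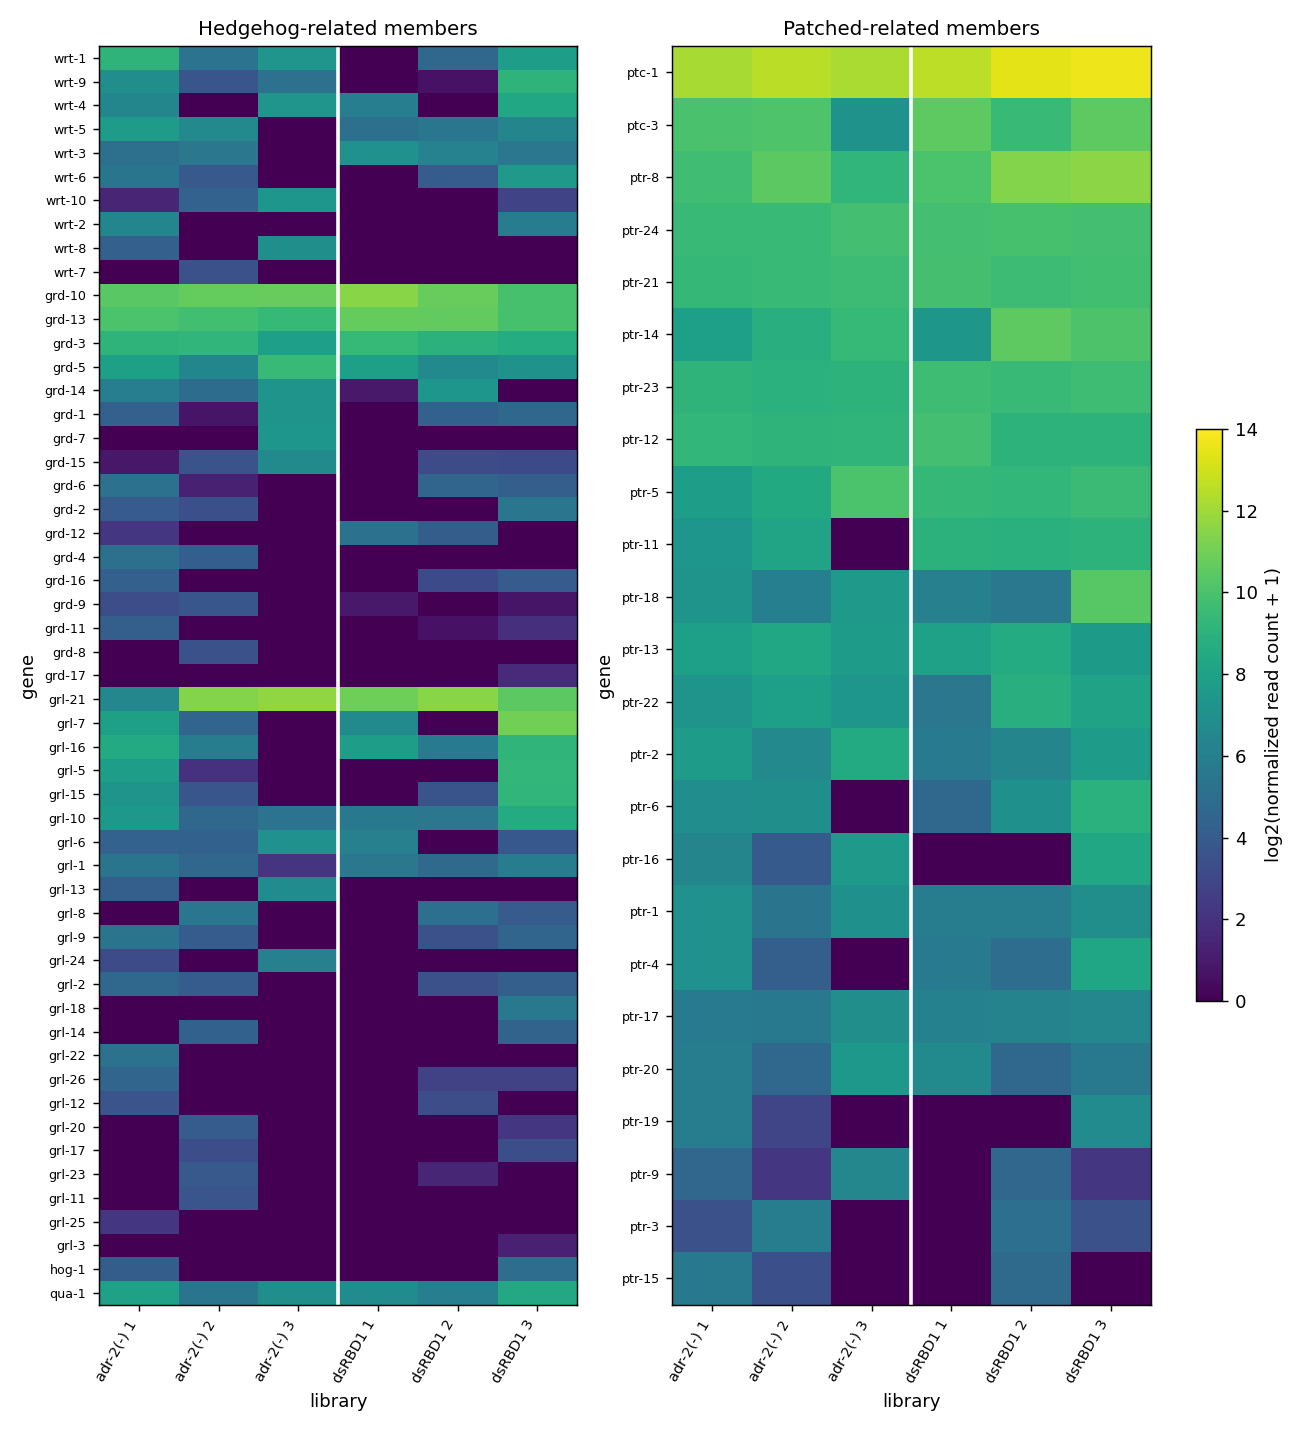
Colour gives log2(normalized read count + 1) of each of the 77 members (one per line) in each of the 6 libraries (columns), with hedgehog-related members on the left and patched-related members on the right. The patched-related members are filled in most libraries, with reads in all 6 for 16 of 24, whereas many hedgehog-related members are at 0 (darkest) in some libraries.

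Members differed first in how many libraries they were seen in. Reads were found in all 6 libraries for 24 members, in 3 to 5 libraries for 33 and in 1 or 2 libraries for 20. Of the 57 members tested, 42.1% had reads in all 6 libraries, against 65.3% of all genes tested, and the median of their means was 104.1 normalized counts against 152 for all genes. The *ptr* and *ptc* genes were seen most widely, with 14 of 22 *ptr* genes and both *ptc* genes in all 6 libraries and every one of the 24 above the mean of 10. Of the hedgehog-related genes, 8 of 53 had reads in all 6 libraries (4 *grd*, 3 *grl*, *qua-1*), and no *wrt* gene did. The *ptc* genes held 35.5% of the summed mean value of the members, *ptr* 32.0%, *grd* 15.7%, *grl* 13.5%, *wrt* 2.69% and *qua-1* 0.647%. These shares are not corrected for gene length, and longer genes yield more reads. Per kilobase of exon, *grl-21* (3062 normalized counts), *grd-10* (2708) and *grd-13* (1855) were above *ptc-1* (1498). A member with 3 reads or fewer was taken as at the floor of a library, which was 1.81 to 9.76 normalized counts, the highest in the third *adr-2 (-)* library.

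Among the secreted hedgehog-related proteins, *grl-21*, a ground-like gene known to oscillate with the molts, had the highest level per length, with 3062 normalized counts per kilobase of exon. Its normalized counts were 88.3, 2751 and 3275 in *adr-2 (-)* libraries 1, 2 and 3, and 1941, 2910 and 1437 in the dsRBD1 mutant libraries. The first *adr-2 (-)* library was far below the other 5, and the remaining values of both genotypes overlapped. The log2 fold change was 1.11 ± 1.02 (SE; limma, adjusted p = 0.768), and it was −0.58 without that library.

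The next 2 genes per length were *grd-10* and *grd-13*, with 2708 and 1855 normalized counts per kilobase. *grd-13*, *grd-3* and *grd-10* lie side by side on the same strand of chromosome IV (3438312 to 3441841, WBcel235), 147 and 601 bp apart. *grd-3* was named after its values were seen. Together they held 67.6 to 95.0% of the summed *grd* value in each library, the lowest share being in the third *adr-2 (-)* library.

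The normalized counts of *grd-13* were 1043, 854 and 657 in *adr-2 (-)* and 1669, 1621 and 955 in the dsRBD1 mutant. The groups overlapped by 1 library, as the lowest dsRBD1 mutant value was below the highest *adr-2 (-)* value. The difference was 0.71 ± 0.29 on the log2 scale (limma, adjusted p = 0.741), from a mean of 851 ± 193 to 1415 ± 399 (SD, n = 3).

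*grd-10* read 1370, 1637 and 1717 against 2888, 1700 and 974. Its dsRBD1 mutant values lay on both sides of the *adr-2 (-)* values (log2 fold change 0.10 ± 0.34, limma adjusted p = 0.942). *grd-3* read 558, 583 and 234 against 670, 503 and 406. The neighbours did not keep a fixed ratio, since *grd-10* ran from 1.02 to 2.61 times *grd-13* over the 6 libraries.

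The warthog genes were low and scattered. The values of *wrt-3* were 35.1, 46.2 and 0 in *adr-2 (-)* and 134, 74.0 and 46.5 in the dsRBD1 mutant, so that the lowest of the dsRBD1 mutant values was barely above the highest of the *adr-2 (-)* values. Its log2 fold change was 2.71 ± 1.80 (limma, adjusted p = 0.741), and it was 0.92 without the third *adr-2 (-)* library, which had no read, and 1.59 in edgeR. A pseudogene on the same strand overlaps its exons, so that the source of these reads is uncertain.

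*wrt-2*, whose promoter is used to mark the seam cells of the epidermis, had reads in the first *adr-2 (-)* library (85.6) and in the third dsRBD1 mutant library (58.7) and none in the other 4. *wrt-5* read 206, 94.7 and 0 against 35.3, 43.9 and 81.6. Its limma log2 fold change of 0.92 ± 1.94 turned to −0.91 in edgeR and DESeq2, and to −1.46 in limma without the third *adr-2 (-)* library, where it was at 0. The groups of both genes overlapped.

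*qua-1*, the single quahog gene, which is needed for molting, read 254, 41.8 and 124 against 112, 61.4 and 348. The highest value was in the third dsRBD1 mutant library and the next in the first *adr-2 (-)* library (log2 fold change 0.29 ± 0.90, limma adjusted p = 0.939). *hog-1* had reads in those same 2 libraries, 44 and 18, and none elsewhere, and its mean was below the minimum for testing.

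Ground-like genes with a restricted site of expression were scarce. *grl-2*, which marks the excretory duct and pore cells, read 24.3, 16.2 and 0 against 0, 10.2 and 17.9, with overlapping groups (log2 fold change −0.34 ± 2.18, limma adjusted p = 0.973). *grl-18*, which marks socket glia of the inner labial sense organs, had 68 reads, all in the third dsRBD1 mutant library. Against 3 reads per library, its mean was at least 3.32-fold higher in the dsRBD1 mutant, a bound set by that library alone. The 13 glia markers on the list had reads for 7 to 13 genes per library, and all 13 were seen in the third dsRBD1 mutant library.

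Of the membrane proteins, *ptc-1*, one of the worm's Patched homologs, known for its role in germline cytokinesis, had the highest normalized count of all members in every library. It lies on chromosome II (7893222 to 7900515, plus strand) and read 4569, 6063 and 4807 in *adr-2 (-)* and 6248, 10904 and 13034 in the dsRBD1 mutant. All dsRBD1 mutant libraries were above all *adr-2 (-)* libraries, though the first was above the second *adr-2 (-)* library by little. The means were 5146 ± 803 and 10062 ± 3470 (SD, n = 3), and the log2 fold change was 0.91 ± 0.28 (limma, adjusted p = 0.704).

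The adjusted p of *ptc-1* was 0.0551 in DESeq2 and ran from 2.43e-05 to 0.347 in DESeq2 when 1 library was left out. Its log2 fold change stayed between 0.69 and 1.22 in limma under those omissions. Of 10 markers of germline and early embryo, 0 passed in limma and 5 were called lower in DESeq2. In 8 of the 10 every dsRBD1 mutant library was below the *adr-2 (-)* libraries (6.92% of all genes), with summed values of 1872 to 6154 in *adr-2 (-)* against 1002 to 1333. All 10 of these markers had reads in 5 of the 6 libraries, and 9 had reads in the second *adr-2 (-)* library.

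*ptc-3*, the other Patched homolog, which acts in growth and molting, read 1012, 1125 and 146 against 1469, 689 and 1496. The third *adr-2 (-)* library was low, with 45 reads, and the groups overlapped (log2 fold change 1.06 ± 0.64, limma adjusted p = 0.741). Without that library the log2 fold change was 0.11.

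Of the *ptr* genes, *ptr-8* read 829, 1425 and 585 against 1060, 2734 and 3038. The first dsRBD1 mutant library was below the second *adr-2 (-)* library, and the other 2 were above all *adr-2 (-)* libraries. Its log2 fold change was 1.22 ± 0.41 (limma, adjusted p = 0.722). In DESeq2 the adjusted p was 0.143 and ran from 0.00584 to 0.591 when 1 library was left out. The gene shares exon sequence with *sra-10* on the opposite strand, and whether the counting used strand is not given in the sources used here.

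*ptr-11* read 165, 291 and 0 against 514, 479 and 534. Its dsRBD1 mutant values were close together and all above the *adr-2 (-)* values (log2 fold change 3.81 ± 1.64, limma adjusted p = 0.741). The size rests on the third *adr-2 (-)* library, which had 0 reads, since without it the log2 fold change was 1.21.

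*ptr-23*, which acts in osmoregulation, was the most even of the members whose groups did not overlap. It read 542, 492 and 533 in *adr-2 (-)* and 790, 728 and 810 in the dsRBD1 mutant. The log2 fold change was 0.57 ± 0.27 (limma, adjusted p = 0.741) and stayed between 0.53 and 0.62 when 1 library was left out.

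*ptr-21* read 651, 730 and 761 against 950, 783 and 861, which again did not overlap, with a log2 fold change of 0.27 ± 0.25 (limma adjusted p = 0.768). *ptr-24* read 688, 683 and 898 against 896, 976 and 896, with a log2 fold change of 0.30 ± 0.25. Its lowest dsRBD1 mutant value was just below the highest *adr-2 (-)* value.

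The remaining *ptr* genes among the 12 members with the highest normalized counts had overlapping groups. *ptr-14* was uneven (234, 455 and 660 against 166, 1473 and 1077; log2 fold change 0.64 ± 0.69). *ptr-12* read 615, 542 and 566 against 890, 536 and 530 (0.14 ± 0.31), and *ptr-5* read 231, 358 and 1067 against 639, 621 and 736 (0.57 ± 0.47). When 1 library was left out, the log2 fold change ran from 0.04 (without the second dsRBD1 mutant library) to 1.61 (without the first) for *ptr-14*, and from 0.10 (without the first *adr-2 (-)* library) to 1.204 (without the third) for *ptr-5*.

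**Figure D2:**
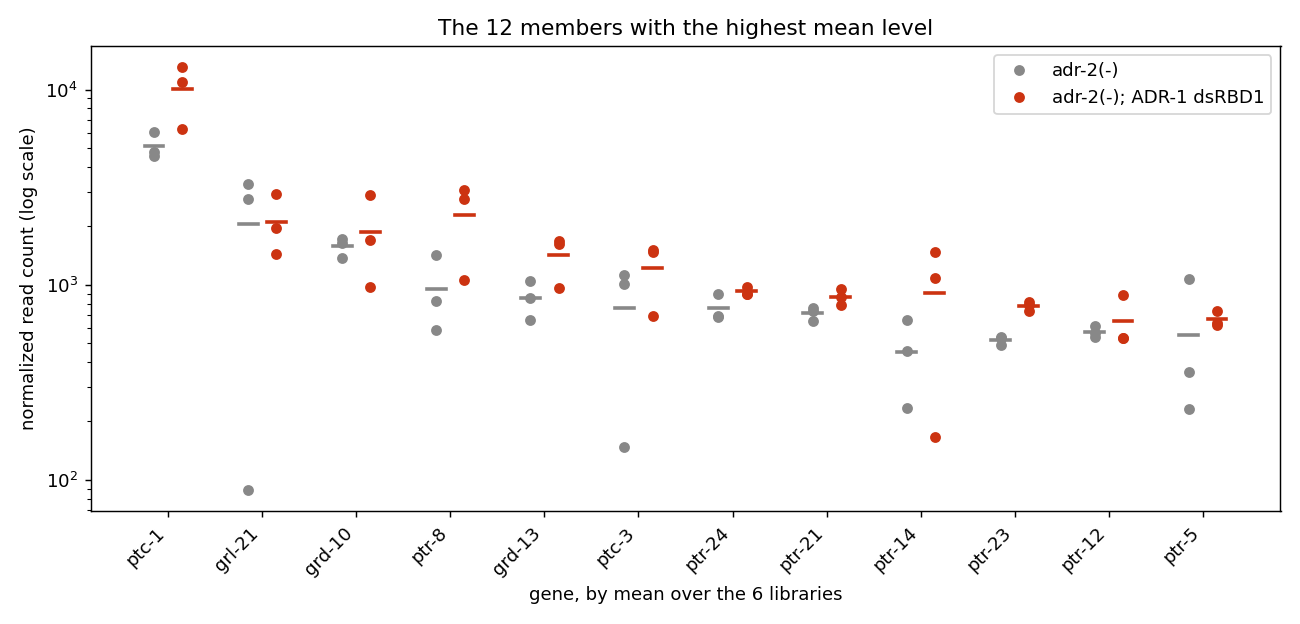
Normalized read count (log axis) of the 12 members with the highest mean in the *adr-2 (-)* libraries (grey points) and the dsRBD1 mutant libraries (red points), with the mean of each genotype as a bar. The points of the 2 genotypes are fully separated for *ptc-1*, *ptr-21* and *ptr-23* and overlap for the other 9 genes.

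In all, 5 of the 57 members tested (8.77%) were higher in every dsRBD1 mutant library than in any *adr-2 (-)* library, namely *ptc-1*, *ptr-11*, *ptr-21*, *ptr-23* and *wrt-3*, against 6.8% of all genes tested. None was lower in every dsRBD1 mutant library, against 6.92% of all genes. For a single gene, the two-sided exact permutation test of 3 against 3 libraries gave p = 0.1 for each of the 5, which is the smallest p it allows. The share on the higher side was near that of all genes. A gene with no read in 1 library of a genotype cannot be above every library of the other. Reads in all 6 libraries were found for 42.1% of the members tested, against 65.3% of all genes. The shares of all genes are therefore not a like baseline, and the absence on the lower side is not read as a result.

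Over the members tested, 31 log2 fold changes were above 0 and 26 below, a share above 0 of 54.4% against 54.5% of all genes. Their median was 0.14, against 0.09 for all genes, and 0.14 as well with the 4 members that were at 0 in all dsRBD1 mutant libraries set at their bounds. The 24 members with reads in all 6 libraries had a median of 0.29, with 19 above 0 and 5 below, while all 8943 genes with reads in all 6 libraries had a median of 0.02, with 4614 above and 4329 below. The 28 tested members with reads in 3 to 5 libraries had a median of −0.30, with 12 above 0 and 16 below. Of the 20 members with reads in 1 or 2 libraries, 5 were tested, with a median of −3.10 and all below 0. The 4 at 0 in all dsRBD1 mutant libraries were among these 5. They passed the minimum mean through the *adr-2 (-)* libraries alone, so the filter fixed their direction. All genes seen in as few libraries were not summarized for comparison. The median was −0.48, over 58 members tested, without the third dsRBD1 mutant library.

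**Figure D3:**
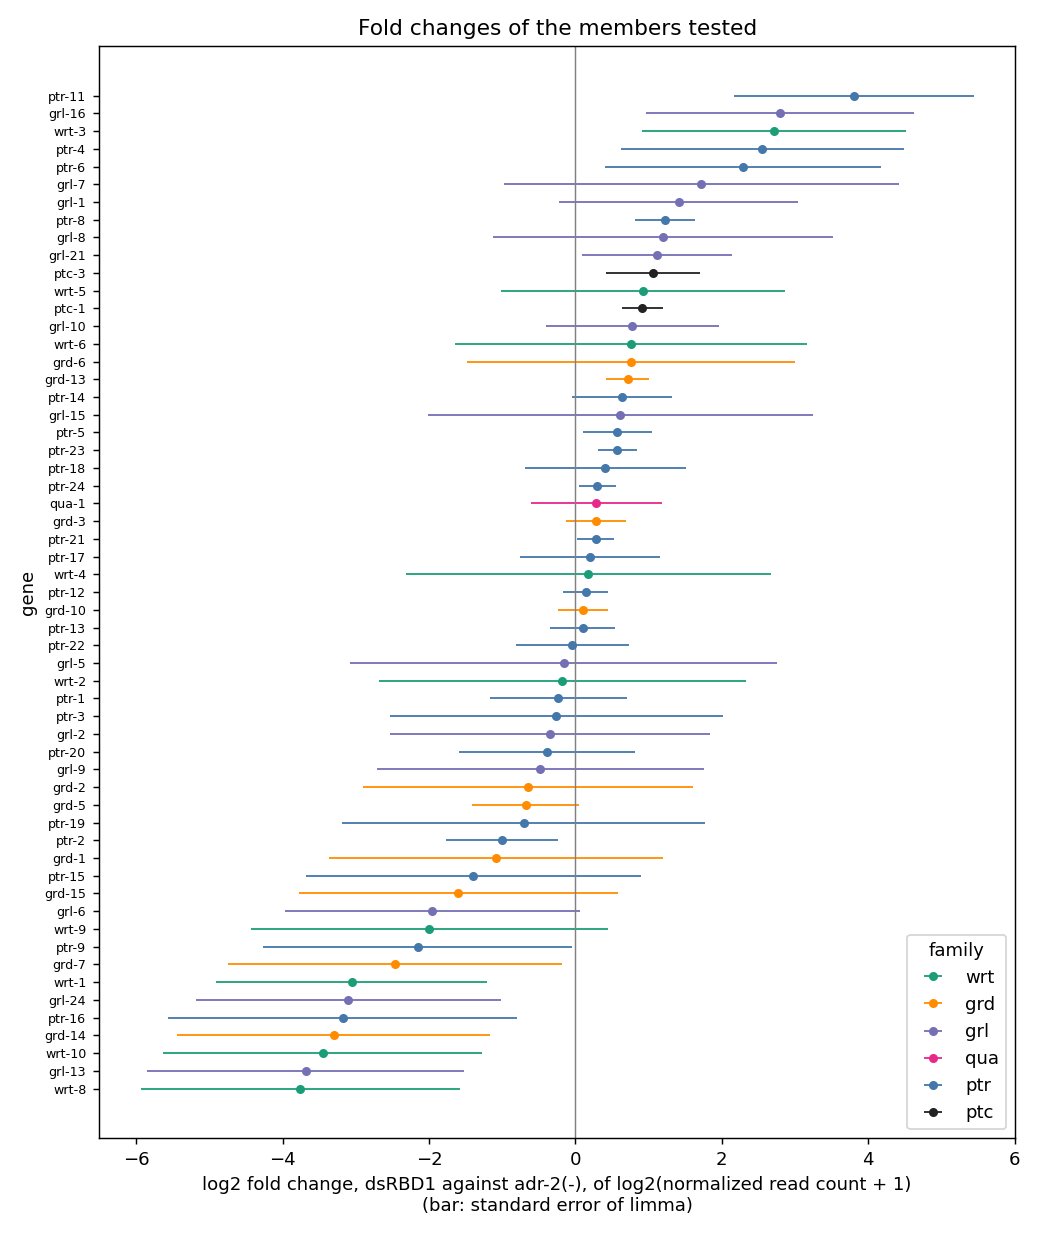
Log2 fold change, dsRBD1 mutant against *adr-2 (-)*, of log2(normalized read count + 1) for the 57 members tested, with the standard error of limma as a bar and the family as the colour. Standard errors run from 0.25 for *ptr-21* to 2.91 for *grl-5*, and none of the 57 passed the threshold after adjustment.

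The recovered reads were also tested as counts. The quasi-likelihood test of edgeR called 0 of 49 members (0% of 12996 genes). At an unadjusted p under 0.05 in edgeR, 4 of the 49 were higher (2.72% of all genes) and 0 were lower (415 of the 12996 genes). These 4 were *ptc-1*, *ptr-8*, *grd-13* and *ptr-23*. *ptr-11*, among the 4 of limma, had an unadjusted p of 0.116 in edgeR and 0.0763 in DESeq2. The Wald test of DESeq2 called 0 members higher (0.311% of 13844 genes) and 1 lower (1.98%), of the 54 members for which it gave an adjusted p. At an unadjusted p under 0.05, DESeq2 gave 3 members higher (*ptc-1*, *ptr-8* and *grd-13*), or 4.17% against 2.56% of all genes. It gave 6 lower (*grd-4*, *grd-7*, *grl-13*, *grl-24*, *wrt-8* and *wrt-10*), or 8.33% against 5.29% of all genes. In DESeq2 all genes thus leaned to the lower side as well. Of these 6, only *wrt-10* had a read in any dsRBD1 mutant library (9 reads, in the third). Limma and edgeR gave 0 members lower. The 1 call was *grd-7*, which had 51 reads in the third *adr-2 (-)* library and none in any other library (adjusted p = 4.78e-10 in DESeq2). Its mean was at least 24.6-fold lower in the dsRBD1 mutant against 3 reads per library, a bound set by the third *adr-2 (-)* library, without which *grd-7* had no read. With another library left out, its adjusted p ran from 3.00e-07 to 0.180 in DESeq2. In limma its adjusted p was 0.768.

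The highest values of the members were spread unequally over the libraries. The third dsRBD1 mutant library held the highest value of 21 of the 57 members (36.8%, against 14.3% of all genes tested), and the third *adr-2 (-)* library that of 15 (26.3%, against 27.2%). The first *adr-2 (-)* library was the highest for 8 members (14.04%, against 16.6%) and the second for 2 (3.51%, against 9.35%). The first and second dsRBD1 mutant libraries were the highest for 6 (10.5%, against 20.9%) and 5 (8.77%, against 11.8%). The members summed to 17342, 19821 and 19919 normalized counts in *adr-2 (-)* and to 22636, 28782 and 36890 in the dsRBD1 mutant.

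**Figure D4:**
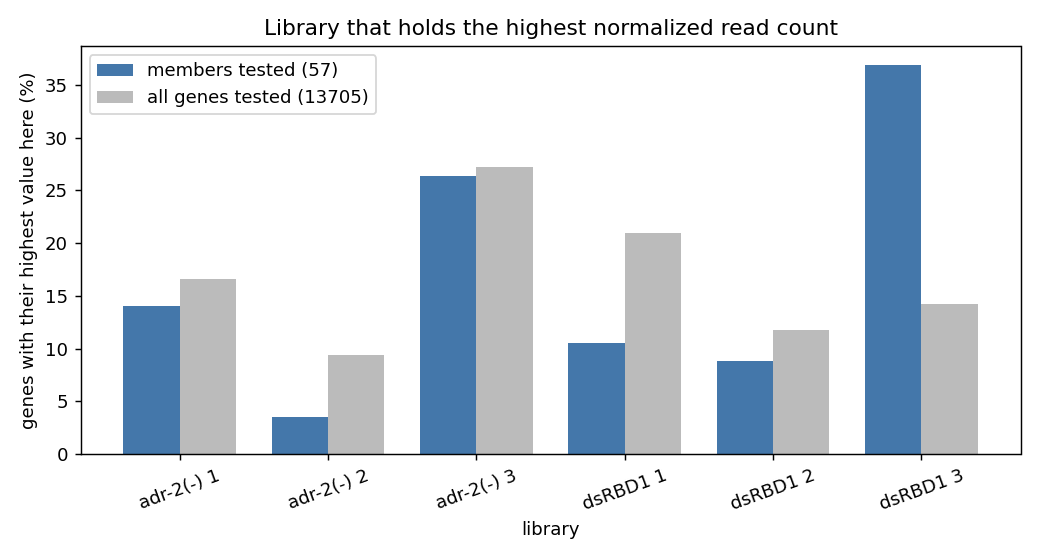
Share of genes (%) that had their highest normalized read count in each library, for the 57 members tested (blue) and all 13705 genes tested (grey). The third dsRBD1 mutant library holds 36.8% of the members' highest values, against 14.3% for all genes.

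More than 50% of the summed value lay in the third dsRBD1 mutant library for 13 members (22.8%, against 1.67% of all genes tested). They were *grl-5*, *grl-7*, *grl-10*, *grl-15*, *wrt-4*, *wrt-6*, *wrt-9*, *grd-2*, *ptr-4*, *ptr-6*, *ptr-16*, *ptr-18* and *ptr-19*, of which those outside the roles given here were named after their values were seen. Together they summed to 7364 normalized counts in that library, against 357 and 283 in the other dsRBD1 mutant libraries and 1599, 326 and 615 in *adr-2 (-)*. The first *adr-2 (-)* library was the second highest for 9 of the 13.

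*grl-7* and *ptr-18* are both known from the L1 arrest of unfed larvae, in which *ptr-18* acts in the hypodermis to keep neural progenitor cells quiescent. *grl-7* read 244, 22.7 and 0 in *adr-2 (-)* and 98.5, 0 and 2094 in the dsRBD1 mutant, and *ptr-18* read 150, 63.9 and 192 against 66.9, 47.5 and 1328. Both had overlapping groups, with 1 dsRBD1 mutant library far above all the rest. Their log2 fold changes were 1.72 ± 2.69 and 0.41 ± 1.10 (limma adjusted p = 0.854 and 0.924) and became −0.85 and −1.11 without the third dsRBD1 mutant library.

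*grl-5* had 246, 4 and 0 reads in *adr-2 (-)* and 0, 0 and 875 in the dsRBD1 mutant. *grl-15* had 169, 17 and 0 against 0, 19 and 830, and *wrt-9* had 133, 16 and 11 against 0, 1 and 781. In these 3 genes the first 2 dsRBD1 mutant libraries were at or near 0 at depths of 12219263 and 18382009 reads. The first dsRBD1 mutant library had reads for 11971 genes and 36 members. The first *adr-2 (-)* library, at 11922671 reads, had reads for 15321 genes and 65 members. The cause of these low values was not tested.

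*ptr-4*, needed for the apical extracellular matrix and cuticle, read 137, 17.6 and 0 against 53.9, 30.7 and 298 (log2 fold change 2.55 ± 1.93, limma adjusted p = 0.746). The log2 fold change was 0.67 without the third *adr-2 (-)* library, 4.22 without the first, 1.61 without the third dsRBD1 mutant library and 1.30 in edgeR. *ptr-2*, which acts in the embryonic epidermis, was not among the 13. It read 202, 96.9 and 371 against 53.9, 81.9 and 202, with its highest value in the third *adr-2 (-)* library (log2 fold change −0.998 ± 0.763, limma adjusted p = 0.749). The groups of both genes overlapped.

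**Figure D5:**
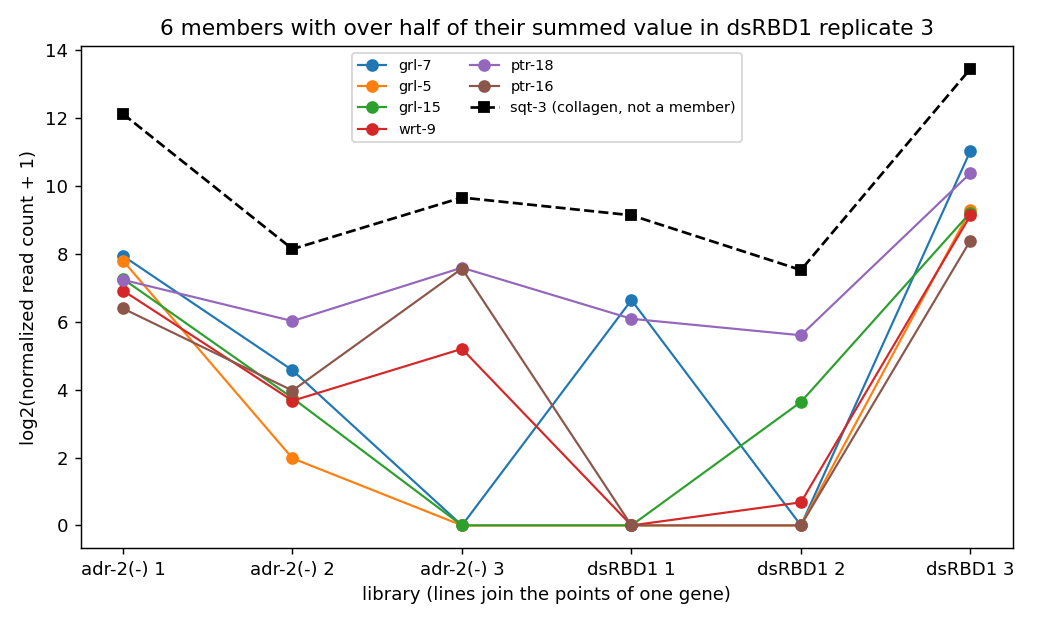
Log2(normalized read count + 1) of 6 of the 13 members with more than 50% of their summed value in the third dsRBD1 mutant library (coloured circles) and of the cuticle collagen gene *sqt-3* (black squares), in each of the 6 libraries. All are highest in the third dsRBD1 mutant library, and 5 of the 7 genes are next highest in the first *adr-2 (-)* library, the exceptions being *ptr-16* and *ptr-18*. *sqt-3* is 1 of 14 epidermis and seam markers and was named outside the rules given here. Only 3 of the 12 markers tested from that list were highest in the third dsRBD1 mutant library.

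The sums of the epidermis and molting lists, though not most of their genes, were also highest in that library. The 14 epidermis and seam markers summed to 20595 in the third dsRBD1 mutant library, against 7720 and 8408 in the other dsRBD1 mutant libraries and 11059, 8466 and 7745 in *adr-2 (-)*. All 14 had reads in that library, against 9 to 13 in the others, but only 3 of the 12 tested had their highest value there, against 4 in the third and 3 in the first *adr-2 (-)* library. Most of that sum came from the cuticle collagen gene *sqt-3*, which read 4453, 281 and 807 against 562, 183 and 11199. Without *sqt-3* the list summed to 9396 in the third dsRBD1 mutant library and to 6606 to 8225 in the others. Of the 12 tested, 3 (*elt-3*, *ceh-16* and *dpy-5*) were lower in every dsRBD1 mutant library (6.92% of all genes). Another 1 (*elt-6*) was higher in every one (6.8%). Limma called 0 of the 12. DESeq2 called *dpy-5* lower (adjusted p = 0.0157), which had 199, 20 and 1 reads against 0, 1 and 1. The molting genes listed summed to 6357, 6076 and 3568 against 4221, 6401 and 10629, mostly from *lrp-1* (6712 in the third dsRBD1 mutant library). Without *lrp-1* they summed to 3918 in that library and to 1623 to 3591 in the others, and 7 of the 16 tested were highest in that library and 6 in the first *adr-2 (-)* library. The part of epidermal RNA in the levels of the 13 members was not tested.

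The 9 members with more than 50% of their summed value in the third *adr-2 (-)* library (15.8%, against 7.82% of all genes) were *grl-6*, *grl-13*, *grl-24*, *grd-1*, *grd-7*, *grd-15*, *wrt-8*, *wrt-10* and *ptr-9*, which apart from *grd-7* were named after their values were seen. They rest on few reads, from 21 for *grl-24* to 51 for *grd-7* and *wrt-10* in that library. Of them *wrt-8*, *grl-13* and *grl-24* had no read in any dsRBD1 mutant library, and their other reads were in the first *adr-2 (-)* library (21, 20 and 9). The first and second *adr-2 (-)* libraries held more than 50% of the value of 3 members (2.97% of all genes) and of 1 member (0.613%). No member had such a share in the first or second dsRBD1 mutant library (2.44% and 0.825% of all genes).

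Among 18 other genes of the pathway and of cell-surface or lipid partners, 0 passed the limma test, 0 had an unadjusted p under 0.05, and the median log2 fold change was 0.40, with 14 above 0. *lrp-1*, a megalin homolog needed for molting, read 2766, 4156 and 943 against 2375, 4778 and 6712 (log2 fold change 0.94). *tra-1*, the Gli homolog that governs sex determination, read 626, 600 and 169 against 451, 705 and 588. The groups of both overlapped, and both were lowest in the third *adr-2 (-)* library.

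The Dispatched-like genes *che-14* and *ptd-2* were seen in some libraries only, with no read in 3 of 6 libraries each and highest values of 68.5 and 98.5. *daf-6*, a patched-related gene that shapes the glial channel of sense organs and lies outside the families taken here by name, read 93.7, 26.4 and 0 against 0, 43.9 and 104.5. Of 19 molting genes listed, 16 could be tested, and 0 passed and 0 had an unadjusted p under 0.05, with 6 log2 fold changes above 0 and 10 below.

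The members lie on all 6 chromosomes, with 28 on V (14 *grl* and 8 *grd*), 13 on X, 11 each on II and IV, 8 on I and 6 on III. Pairs of members less than 10000 bp apart numbered 6, among them *wrt-1* and *wrt-10* on II, which are 15 bp apart on opposite strands and were named after their values were seen. *wrt-1* was highest in the first *adr-2 (-)* library (551) and *wrt-10* in the third (166), so that the neighbours did not share their highest library. Exons of 27 members overlap another annotated gene, on the same strand for 5.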

How the data were processed

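RNA of neural cells from L1 animals was poly(A)-selected and sequenced as single-end stranded reads. The authors aligned reads to WS275 with STAR 2.7.8a, kept unique alignments, and counted them per gene with featureCounts. The deposited signal is a gene's reads scaled by the DESeq2 size factor of its library. The log2 fold changes and the p-values that the authors deposited from their own DESeq2 comparison were not used. All values (100%) were whole multiples of 1 read, within a tolerance of 0.01, which gave back the counts.

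Groups follow the genotype labels. Genes with a mean of at least 10 were tested with limma 3.58.1 (R 4.3.3) on log2(value + 1), using the trend option and adjusting p-values by Benjamini-Hochberg over the 13705 genes. On this scale the pseudocount shrinks differences between low values, while a single library at 0 can make a fold change larger than the count-based one (for *ptr-11*, 3.81 against 1.70 in edgeR). Calls needed an adjusted p under 0.05 together with a log2 fold change of more than 0.5 in either direction. The recovered counts were tested with edgeR 4.0.16 and DESeq2 1.42.0. Exact permutation tests used scipy 1.17.1. Alternatives were another pseudocount (0.5), filter, scaling or test, the replicate block, and each library left out. Leave-one-out fits of DESeq2, and limma without replicate 3 of both genotypes, were chosen after seeing the data.

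The members and lists were chosen with earlier results of these data known. Named genes are the 12 members with the highest mean, those whose groups did not overlap, those with an unadjusted limma p under 0.05 or a DESeq2 call, members with a role listed beforehand (*ptc-1*, *ptc-3*, *qua-1*, *hog-1*, *wrt-2*, *wrt-5*, *grl-2*, *grl-5*, *grl-7*, *grl-18*, *grl-21*, *ptr-2*, *ptr-4*, *ptr-18*, *ptr-23*), and *tra-1*, *che-14*, *ptd-2*, *daf-6* and *lrp-1*. All 77 identifiers were found in the Ensembl release 115 annotation of WBcel235, which gave positions and exon lengths. The floor of 3 reads covers only counting error, as PCR duplicates are not separate molecules.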

Additional observations from a re-analysis of the deposited data

How the results depend on the processing

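No member passed under any limma or edgeR setting, including the fit without replicate 3 of both genotypes. DESeq2 called 1 member, and 0 to 4 members when 1 library was left out. Calls over all genes were not counted for the leave-one-out fits of DESeq2. Whether these member counts differ from the share over all genes is therefore not known. Without dsRBD1 replicate 1 it called *grd-7*, *ptc-1* and *ptr-8*, and without *adr-2 (-)* replicate 2 it called *ptc-1*, *ptr-8*, *grl-13* and *wrt-8*. Without dsRBD1 replicate 2 it called *grd-7* and *grd-14*, without dsRBD1 replicate 3 *grd-7*, *ptr-16*, *wrt-2* and *wrt-10*, and without *adr-2 (-)* replicate 1 or 3 none. Over all genes limma called 3 without a filter, 1 with library totals without the ribosomal RNA genes and 0 to 11 without single libraries, and DESeq2 called 317. Same-numbered libraries did not deviate together (correlations −0.09, 0.04 and −0.06). The replicate block gave 21 calls, with no member among them.

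The median log2 fold change of the members was 0.04 to 0.29 over the other filters, scalings and tests. It was −0.48 to 0.42 without single libraries and −0.31 without replicate 3 of both genotypes. Scaling by library totals without the ribosomal RNA genes moved the median of all genes from 0.09 to −0.04, and turned *grd-10* (−0.037) and *ptr-12* (−0.00074). DESeq2 gave 1.48 for *grl-5* and −0.91 for *wrt-5*, for which edgeR gave −0.91. Of 24 named members, 14 never changed sign. Without single libraries the log2 fold change ran from −0.58 to 2.02 for *grl-21*, −0.28 to 0.50 for *grd-10*, −0.11 to 0.27 for *ptr-12*, −0.85 to 4.67 for *grl-7*, −1.11 to 1.28 for *ptr-18*, −0.40 to 0.89 for *qua-1*, −3.26 to 2.11 for *grl-5*, −1.46 to 2.39 for *wrt-5*, −2.15 to 1.97 for *wrt-2* and −1.81 to 0.94 for *grl-2*. The causes were not tested. Depth limits the low members, for which 3 reads were 9.76 normalized counts in *adr-2 (-)* replicate 3.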
